A study of Mus musculus with 104 samples.

Results

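The collagen chain genes of mouse lung were followed through exposure to the toxic gas phosgene, which damages the alveolar wall. They were taken as all array probe sets annotated to 1 gene symbol made of Col, a number, the letter a and a number, with the probe set of highest mean kept for each gene. The rule gave 36 of the 12393 genes measured, from 58 probe sets, and 19 of the 36 had more than 1 probe set. RefSeq lists 44 such symbols, and the other 8 were not analysed here. By the structure of the protein, 9 are fibrillar chains, 6 are basement membrane chains of type IV, 3 are chains of type VI, 9 belong to the FACIT collagens, which sit on the surface of fibrils, and 9 to smaller classes. The 36 symbols all matched the RefSeq annotation.

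Messenger RNA of whole lung had been hybridised to 104 oligonucleotide chips, 2 for each of 52 numbered lungs. There were 3 untreated lungs, 3 lungs of mice kept in air at each of 8 times (4 at 48 h) and 3 lungs exposed to phosgene at each time. The times carry the numbers 0.5, 1, 4, 8, 12, 24, 48 and 72 with no unit, and the phosgene amount is given as 32 mg. That the times are hours after exposure is knowledge of the study. Strain, age and sex are not part of the labels, all mice are described alike apart from the exposure, and nothing in the labels ties each lung number to 1 animal, so a p measures only how numbered lungs vary. Signal intensities were scaled by the authors to a common trimmed mean on each chip, chip medians ran from 68.2 to 90.1 units, and precision is limited by the 3 or 4 lungs in each group. Transcripts of 5 alveolar type 2 cell markers summed to between 13964 and 24308 units in every lung; these mark the labelled tissue. The 5 air lungs numbered 155 to 159, which belong to the 8, 48 and 72 h groups, carry numbers apart from the other air lungs. Calls of collagen chains at 48 and 72 h are given with and without them, and those of other genes only with them. Over all genes, 674 were called at 48 h with these lungs and 382 without, so such losses are not particular to collagen chains.

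Collagens are proteins in which 3 chains wind into a triple helix. Fibrillar collagens of types I, III and V are secreted mainly by fibroblasts, are trimmed outside the cell and assemble into the fibrils that give the lung its tensile strength. Type IV collagen forms a sheet-like network in the basement membrane under epithelium and endothelium, where the chains of Col4a1 and Col4a2 combine in most tissues and those of Col4a3, Col4a4 and Col4a5 combine in the alveolar and glomerular basement membranes. Type VI collagen forms beaded filaments near cell surfaces from the chains of Col6a1, Col6a2 and Col6a3. New collagen production in injured lung is a feature of fibrosis, which follows some forms of lung injury.

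The genes of partner chains lie in different arrangements. Those of type IV lie in head-to-head pairs, and in the annotation the genes Col4a1 and Col4a2 overlap by 85 bases on chromosome 8, Col4a3 and Col4a4 overlap by 114 bases on chromosome 1, and Col4a5 and Col4a6 on chromosome X are 1274 bases apart. Col6a1 and Col6a2 lie on chromosome 10, whereas Col6a3 lies on chromosome 1. The start regions of 2 pairs are shown because the members of each pair are compared below, one pair with a shared region and one without. They hold 250 bases before and 50 after the annotated start, from RefSeq on build GRCm38.p6. Col4a1 is chr8:11312777-11313076 on the minus strand, Col4a2 is chr8:11312555-11312854 on the plus strand, Col6a1 is chr10:76725995-76726294 on the minus strand, and Col6a3 is chr1:90843922-90844221 on the minus strand. Capitals mark GGGCGG (the GC box) and CCAAT on either strand.
Col4a1: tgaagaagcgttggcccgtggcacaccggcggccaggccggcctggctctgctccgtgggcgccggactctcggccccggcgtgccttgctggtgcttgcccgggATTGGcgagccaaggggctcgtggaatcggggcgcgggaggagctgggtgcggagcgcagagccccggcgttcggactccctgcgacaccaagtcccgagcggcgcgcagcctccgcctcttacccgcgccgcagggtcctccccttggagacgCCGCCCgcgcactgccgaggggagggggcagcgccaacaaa
Col4a2: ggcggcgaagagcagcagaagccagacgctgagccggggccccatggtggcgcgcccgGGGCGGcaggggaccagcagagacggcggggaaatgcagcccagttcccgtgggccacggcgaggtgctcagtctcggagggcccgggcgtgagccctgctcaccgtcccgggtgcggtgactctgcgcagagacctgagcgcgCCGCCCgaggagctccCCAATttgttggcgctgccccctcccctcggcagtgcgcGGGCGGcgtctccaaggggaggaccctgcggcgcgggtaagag
Col6a1: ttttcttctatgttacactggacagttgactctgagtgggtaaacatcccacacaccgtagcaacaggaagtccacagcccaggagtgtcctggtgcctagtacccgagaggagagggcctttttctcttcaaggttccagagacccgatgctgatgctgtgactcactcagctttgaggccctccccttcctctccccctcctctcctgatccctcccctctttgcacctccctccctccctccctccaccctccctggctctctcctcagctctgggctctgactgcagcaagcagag
Col6a3: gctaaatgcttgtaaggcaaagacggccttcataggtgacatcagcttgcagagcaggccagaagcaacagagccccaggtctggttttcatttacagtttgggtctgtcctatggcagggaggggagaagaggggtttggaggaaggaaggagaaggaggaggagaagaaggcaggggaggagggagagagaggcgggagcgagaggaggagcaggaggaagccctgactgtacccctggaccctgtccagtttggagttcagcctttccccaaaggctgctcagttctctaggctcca
The windows of Col4a1 and Col4a2 share 78 bases. The Col4a2 window holds 3 GC boxes and 1 CCAAT, that of Col4a1 1 of each, and those of Col6a1 and Col6a3 hold none of these letters and no TATAAA. Over all 32851 windows, 35.7% hold GGGCGG, 37.4% CCAAT and 13.6% TATAAA, counting both strands, against 17, 12 and 5 of the 30 windows matched for 27 collagen genes.

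Averaged over the 8 times with equal weight, 16 of the 36 collagen chains were lower in phosgene than in air lungs and 0 were higher, at a limma adjusted p under 0.05. Over all genes 16.5% were lower and 9.61% higher by the same rule. The median log2 change was -0.13 for the collagen chains and -0.04 for all genes. Below 0 lay 33 of the 36 and 7749 of all 12393 genes. The decreases were shallow, between -0.13 for Col14a1 and -0.51 for Col6a3, and the 3 chains above 0 were Col8a1 (0.13 ± 0.07 SE), Col5a3 (0.03 ± 0.06 SE) and Col11a1 (0.03 ± 0.07 SE), none of which passed. All log2 changes are of the intensity plus an offset of 16, which damps the changes of dim probe sets. Of the 36, 18 lay below the median level of all genes, among them the cartilage chains Col2a1, Col9a1, Col9a2, Col9a3, Col11a1, Col11a2 and Col10a1, and 3 of these 18 were called lower. Summed levels of 8 cartilage markers lay between 164 and 344 units in all lungs. Of the 18 at or above the median level, 13 were called lower. The shares of all genes called above and below that level in this fit were not counted, so neither count has its background. A fit of genes at or above that level alone called 2515 genes, 63.6% of them lower. Its median log2 change was -0.215 for the 18 collagen chains and -0.035 for all its genes.

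**Figure D1:**
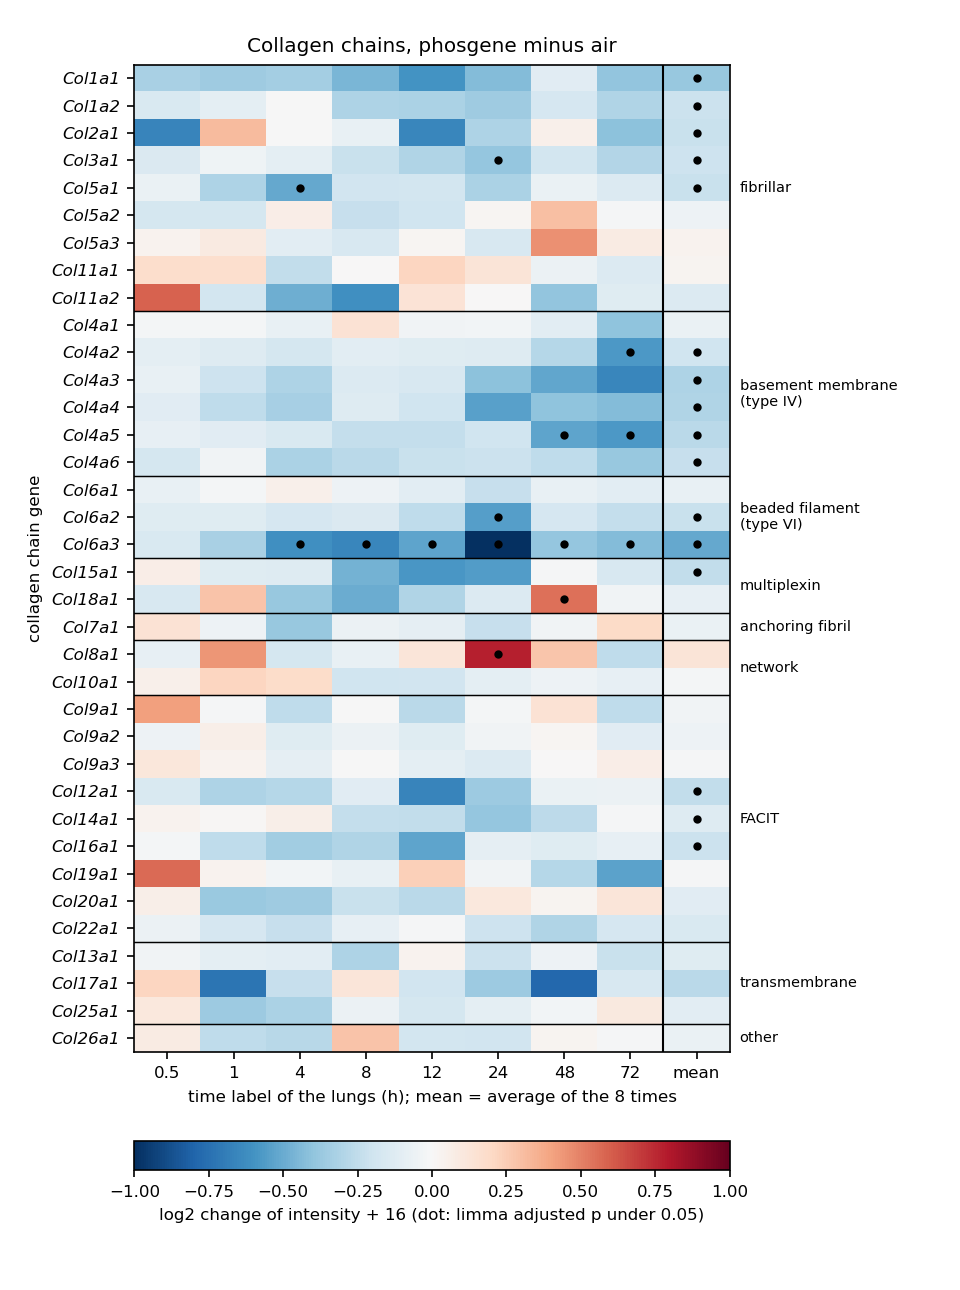
Log2 change of intensity plus 16, phosgene minus air, for the 36 collagen chains (rows, by class) at each time label and averaged over the 8 times (right-hand column). Dots mark an adjusted p under 0.05. In the averaged column 16 chains are called and all 16 are blue (lower), and of the single times the row of Col6a3 holds 6 dots.

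Both fibrillar and basement membrane chains were among the 16 that fell. They took in 5 of 9 fibrillar chains (Col1a1, Col1a2, Col2a1, Col3a1 and Col5a1), 5 of 6 type IV chains (all but Col4a1), 2 of 3 type VI chains (Col6a2 and Col6a3), 3 of 9 FACIT chains (Col12a1, Col14a1 and Col16a1) and Col15a1 of the 2 multiplexins. At single times few chains passed. None was called at 0.5 h (0.29% of all genes were) or at 1 h (0.839%), where 3 and 7 of the 36 had an unadjusted p under 0.05. Over all 12393 genes, 442 and 1006 had such a p. At 4 h Col5a1 and Col6a3 were lower (2.64% of all genes were), at 8 h and at 12 h Col6a3 was (4.83% and 0.516%), and at 24 h Col3a1, Col6a2 and Col6a3 were (0.936%) while Col8a1 was higher (1.05%). At 48 h Col4a5 and Col6a3 were lower (2.65%) and Col18a1 higher (2.78%), and at 72 h Col4a2, Col4a5 and Col6a3 were lower (1.89%). In bulk tissue, fewer cells of a type and less RNA per cell cannot be told apart.

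Chips were scaled by the authors to a trimmed mean, and centring each chip on its median instead changed the share of lower among all called genes of the averaged comparison from 63.1% to 48.1%. At 4 h, where the scalings differed most, the median of all genes moved from -0.08 to 0.03 and the share of lower among called genes from 47.9% to 19.7%. Of the 36 collagen chains, 28 lay below the median of all genes at 4 h and 29 in the averaged comparison, a place that centring, which shifts all genes of a chip alike, leaves as it is by construction. With centred chips 14 were called lower and 0 higher in the averaged comparison.

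Among the fibrillar chains, Col1a1, which codes for the more abundant chain of type I collagen, had the deepest averaged change. Over all times its intensity ran from 950 to 1673 in the 25 air lungs, with a median of 1174, and from 621 to 1371 in the 24 phosgene lungs, with a median of 912. At 12 h it was 1309, 1294 and 1141 in the air lungs and 822, 790 and 845 in the phosgene lungs. The phosgene lungs all lay below the air lungs at 0.5, 8, 12 and 72 h, and the groups overlapped at the other 4 times. Such separation was also seen in Col9a2, at a mean of 3.0 units, at 4, 8 and 12 h. Its share over all genes was not counted, so here and below it describes the lungs and is no added support for a call. The averaged log2 change was -0.38 ± 0.06 SE (limma adjusted p = 5.74e-06), although at no single time did Col1a1 pass, the nearest being 12 h (-0.59 ± 0.17 SE, adjusted p = 0.0571) and 8 h (-0.46 ± 0.17 SE, adjusted p = 0.0883). The second probe set of the gene gave -0.15 ± 0.08 SE and an adjusted p of 0.162, so the averaged call holds for the brighter probe set alone.

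Col1a2, the partner chain of type I, ran from 2218 to 4095 in air lungs (median 2716) and from 1703 to 2919 in phosgene lungs (median 2407). The ranges overlapped widely and the averaged change was -0.21 ± 0.05 SE (limma adjusted p = 0.00228). It was not called from its other probe set (-0.17 ± 0.08 SE, adjusted p = 0.113) or without the 5 air lungs numbered 155 to 159 (-0.12, adjusted p = 0.0511).

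Col3a1, the single chain of type III collagen, showed its call at 24 h. Mean intensity of Col3a1 from 0.5 to 72 h in air lungs was 3402, 3278, 3368, 3386, 3293, 3355, 3343 and 3629.7. The phosgene means were 3068, 3182, 3156, 2894, 2680.5, 2571, 2936 and 2951, with 3365 in untreated lungs and SDs of 54.9 to 509 over the 17 groups. The 24 h lungs read 3418, 3321 and 3325 in air and 2163, 2827 and 2723 after phosgene, so the groups did not overlap. The log2 change was -0.39 ± 0.10 SE (limma adjusted p = 0.0334), a fold of 0.763. This call was lost in 5 of the 6 fits that left out 1 lung, all but that without phosgene replicate 2 (adjusted p = 0.0586 to 0.313, with -0.27 without phosgene replicate 1), and with centred chips (-0.36, adjusted p = 0.202). The averaged change, -0.21 ± 0.04 SE (adjusted p = 2.1e-05), kept its call in every setting run, and the other probe set gave -0.32 ± 0.06 SE (adjusted p = 0.000262).

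Col5a1 codes for a chain of type V collagen, which starts fibrils and limits their width. Its 8 air means, by time, were 302, 328, 379.6, 328, 293, 323, 276 and 296. After phosgene they were 288, 263, 261, 285, 258, 259, 261 and 269, with 313 in untreated lungs and SDs of 3.9 to 58.0 over the 17 groups. At 4 h the air lungs read 353, 429.8 and 356 and the phosgene lungs 257, 253 and 273. The groups did not overlap, and the air mean of 4 h was the highest of the 8 air means. The change at 4 h was -0.51 ± 0.13 SE (limma adjusted p = 0.0111, fold 0.702), but -0.24 with an adjusted p of 0.296 against untreated lungs, and -0.42 with an adjusted p of 0.104 without air replicate 2 and -0.49 with one of 0.0546 without phosgene replicate 2. The averaged change was -0.22 ± 0.05 SE (adjusted p = 0.000192), and -0.08 ± 0.06 SE (adjusted p = 0.358) from its next brightest probe set.

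Col5a2, which codes for the other common type V chain, was not called in the averaged comparison. At 48 h its phosgene lungs read 1103, 876 and 1039 and its air lungs 787, 667, 849 and 973, which overlap. The 48 h change was 0.30 ± 0.11 SE (limma adjusted p = 0.122), and averaged over the times it was -0.05 ± 0.04 SE (adjusted p = 0.396). Col5a3, a dimmer probe set, gave 0.46 ± 0.16 SE at 48 h (adjusted p = 0.0914). Neither change passed. Col5a2 was called higher at 48 h without the 5 air lungs numbered 155 to 159 (0.46, limma adjusted p = 0.0207) and in the fits that took each chip singly and blocked on lung (0.30, adjusted p = 0.0142, with the chip letter as a term). Of those fits, the one with chip lot as a term and the one on chips with a known day called Col5a3 higher too (0.48, adjusted p = 0.0331, and 0.49, adjusted p = 0.0498). The remaining fibrillar chains are chiefly of cartilage and were dim. Col2a1 lay between 4.4 and 41.8 units in all air lungs, and its averaged call (-0.22 ± 0.07 SE, adjusted p = 0.0208) was lost with centred chips (-0.18, adjusted p = 0.0526).

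**Figure D2:**
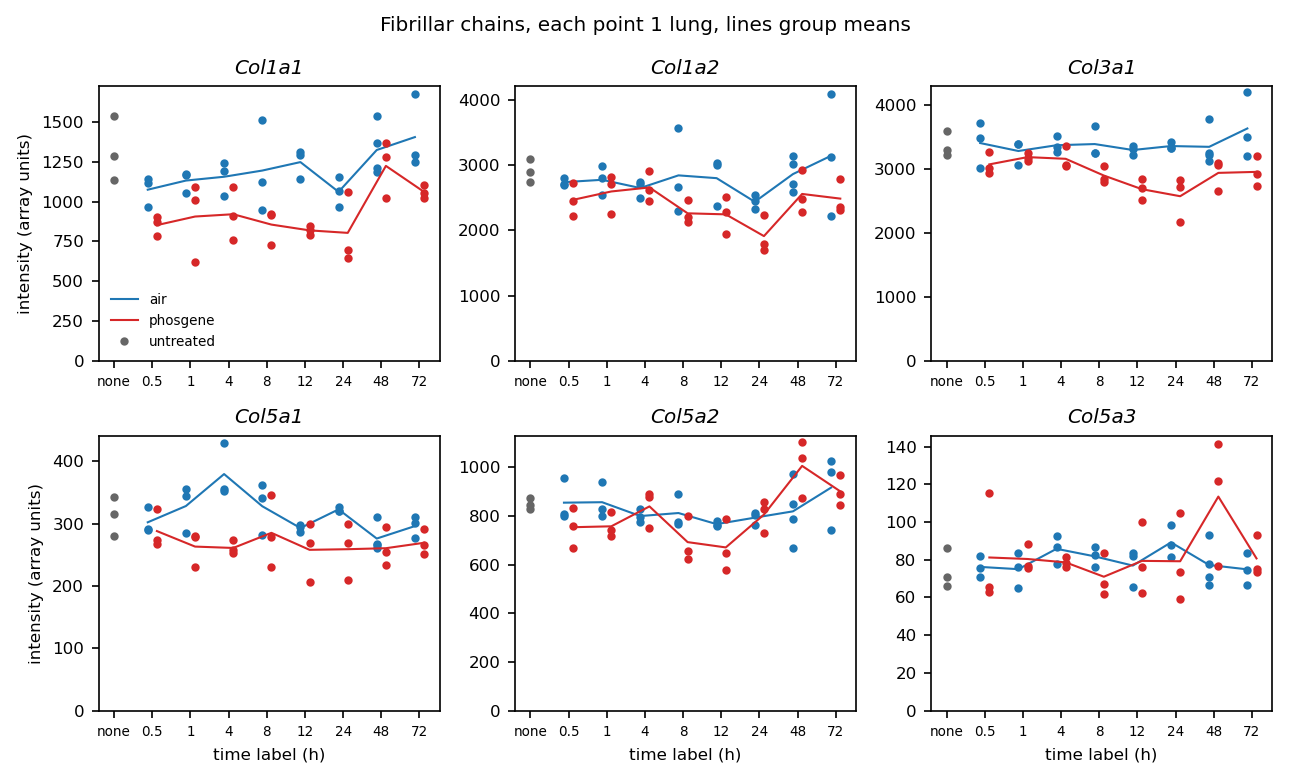
Intensity in array units (linear axis from 0) of 6 fibrillar chains in each lung, by time label, with untreated lungs at the left. Points are lungs and lines join group means. In Col1a1 the phosgene lungs lie below all air lungs at 0.5, 8, 12 and 72 h, while in Col5a2 the phosgene mean lies above the air mean at 48 h.

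In the basement membrane class the late times stood out in the values. At 72 h all 6 type IV chains were lower in phosgene lungs, with a median log2 change of -0.50 and a range of -0.66 to -0.38, while the median of all genes was 0.01. Of the 6, Col4a2 and Col4a5 passed at 72 h and 5 had an unadjusted p under 0.05. Over all 12393 genes, 234 were called lower at 72 h and 1958 had an unadjusted p under 0.05 in either direction.

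Col4a2 codes for the second chain of the widespread type IV network. The air lungs had mean intensities of 1673, 1700.5, 1879.7, 1772, 1693, 1813, 1728 and 1885 at the 8 times in order. Phosgene lungs had means of 1566, 1553, 1657, 1636, 1552, 1665, 1416 and 1253, with 1803 in untreated lungs and SDs of 13.8 to 336 over the 17 groups. The 72 h lungs read 1501, 2130 and 2022 in air and 1195, 1167 and 1396 after phosgene. All phosgene lungs of 72 h lay below all air lungs, and at 48 h they did so too. The 72 h change was -0.57 ± 0.11 SE (limma adjusted p = 0.00159, fold 0.673), which kept its call in every fit that left out 1 lung, from -0.73 to -0.48. Against untreated lungs it was -0.52 ± 0.11 SE (adjusted p = 0.00394).

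Col4a5, coded on chromosome X, supplies the chain shared by the alveolar network and by the network with Col4a6. By time, Col4a5 averaged 758, 748, 822, 801, 768, 749, 773 and 772 in air lungs. The matching phosgene averages were 719.8, 696, 742, 677, 648, 645, 529 and 514, with 694 in untreated lungs and SDs of 11.8 to 120.5 over the 17 groups. At 48 h the air lungs read 810.1, 613, 861 and 809 and the phosgene lungs 518, 594 and 474. At 72 h the air lungs read 740.3, 843 and 734 and the phosgene lungs 576, 505 and 460. The groups did not overlap at either time, with log2 changes of -0.53 ± 0.13 SE at 48 h (limma adjusted p = 0.00612) and -0.58 ± 0.13 SE at 72 h (adjusted p = 0.00782). Its second probe set also passed at 48 h (-0.67 ± 0.15 SE, adjusted p = 0.00368), at 72 h (-0.865 ± 0.159 SE, adjusted p = 0.00089) and in the averaged comparison (-0.39 ± 0.06 SE, adjusted p = 9.01e-07).

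These 72 h calls rest on how the air lungs are counted. Without the 5 air lungs numbered 155 to 159, which leaves 1 air lung at 72 h, assumed to vary as the other groups do, Col4a2 was -0.27 (limma adjusted p = 0.659) and Col4a5 -0.51 (adjusted p = 0.304). Fits that took each chip singly, blocked on lung and added hybridization day or chip lot could not separate day or lot from these lungs. Of the 3 air lungs of 72 h, 1 has no known day, 1 shared its days with no other lung, and both have no known lot, so either fit rests on the remaining 1. With day as a term Col4a2 and Col4a5 were -0.29 (adjusted p = 0.201) and -0.52 (adjusted p = 0.106). On the same chips with no day term, where 2 air lungs count, they were -0.48 (adjusted p = 0.0015) and -0.51 (adjusted p = 0.00888), and on the chips with a known lot and no lot term, where 1 does, -0.27 (adjusted p = 0.494) and -0.51 (adjusted p = 0.125). Leaving out phosgene replicate 3 also ended the calls of Col4a5 at 48 h (adjusted p = 0.0688) and at 72 h (adjusted p = 0.0679). The call of Col4a5 at 48 h held with day as a term (-0.55, adjusted p = 0.000658) and was lost without those lungs (-0.41, adjusted p = 0.143).

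Col4a3 and Col4a4 code for the other chains of the alveolar network, and both were lower on average. Col4a3 ran from 322 to 711 in air lungs (median 421) and from 197 to 498 in phosgene lungs (median 360.0). Col4a4 ran from 160 to 347 in air lungs (median 242) and from 111 to 276 in phosgene lungs (median 190). Both ranges overlapped widely, and the averaged changes were -0.31 ± 0.08 SE for Col4a3 (limma adjusted p = 0.00397) and -0.30 ± 0.08 SE for Col4a4 (adjusted p = 0.00219). Their log2 changes at single times reached -0.66 ± 0.23 SE for Col4a3 at 72 h (adjusted p = 0.112) and -0.54 ± 0.22 SE for Col4a4 at 24 h (adjusted p = 0.249). Col4a6 gave an averaged -0.23 ± 0.05 SE (adjusted p = 0.000782), and -0.15 ± 0.07 SE (adjusted p = 0.139) from its other probe set.

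Col4a1 was the 1 type IV chain that did not pass in the averaged comparison, at -0.07 ± 0.04 SE (limma adjusted p = 0.263). At 72 h its air lungs read 2602, 3886 and 2991 and its phosgene lungs 2208, 2087 and 2852, with overlap, and the change was -0.40 ± 0.12 SE (adjusted p = 0.0518). This 72 h change was called with the offset of 64 (adjusted p = 0.0456), the filter on dim genes (adjusted p = 0.0243) and quantile scaling (adjusted p = 0.00206). It was not called with centred chips, and the limits of the 72 h air lungs given above apply to it too. The second probe set of Col4a1, however, gave an averaged change of -0.24 ± 0.07 SE (adjusted p = 0.00771), so for this gene the 2 probe sets differ in their averaged call.

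**Figure D3:**
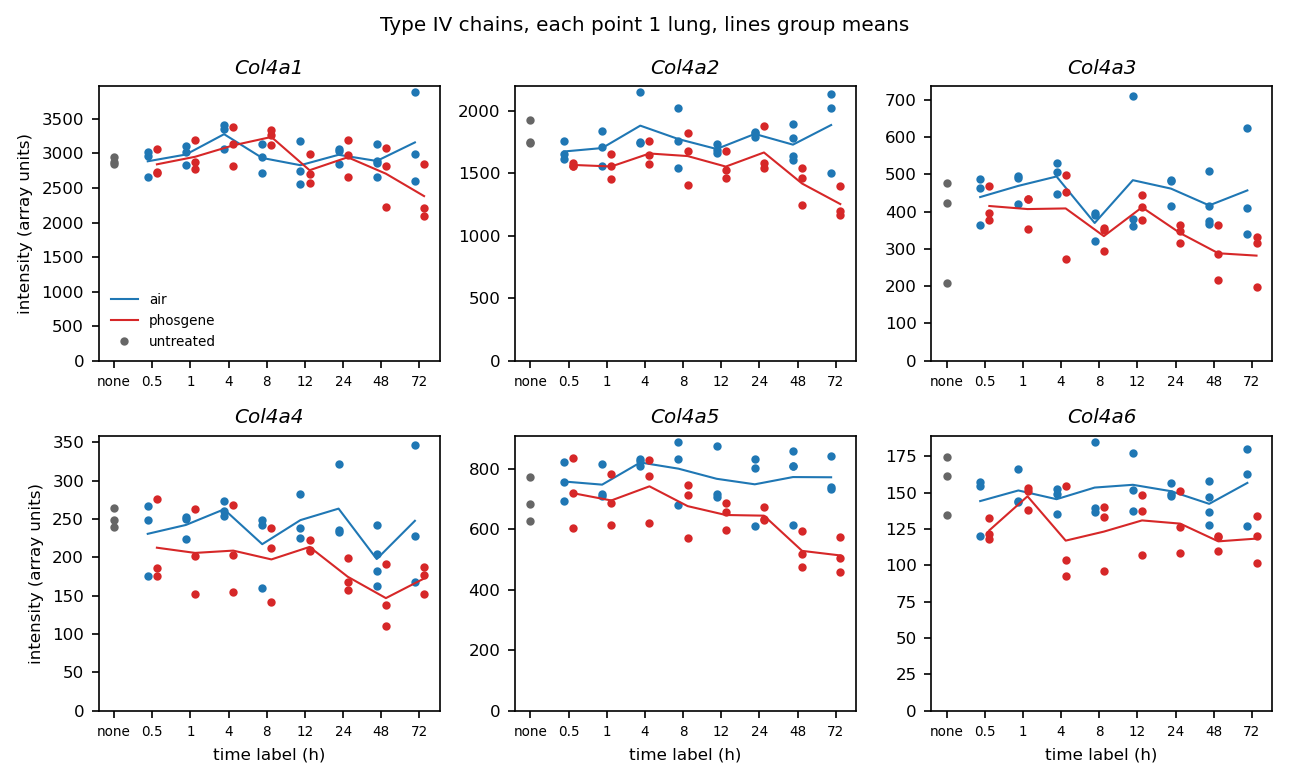
Intensity in array units (linear axes from 0) of the 6 type IV chains in each lung, by time label, with untreated lungs at the left. Points are lungs and lines join group means. At 72 h the phosgene mean lies below the air mean in all 6 panels, and Col4a2 and Col4a5 have no overlap there.

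Set side by side, the 2 classes had their deepest medians at different times. For the 5 fibrillar chains at or above the median level (Col1a1, Col1a2, Col3a1, Col5a1 and Col5a2), the median log2 change was -0.15, -0.17, -0.10, -0.23, -0.30, -0.36, -0.11 and -0.29 from 0.5 to 72 h. For the 6 type IV chains it was -0.09, -0.12, -0.24, -0.13, -0.18, -0.21, -0.35 and -0.50. The fibrillar median was thus deepest at 24 h and the type IV median at 72 h. In the mean of the log2 levels over the chains of a class, taken relative to the mean of the untreated lungs, the fibrillar chains at 24 h stood at -0.53, -0.48 and -0.24 in the phosgene lungs and -0.14, -0.13 and -0.08 in the air lungs. The type IV chains at 72 h stood at -0.33, -0.44 and -0.46 in the phosgene lungs and -0.03, 0.02 and 0.29 in the air lungs. Neither pair of groups overlapped. The order in time was not borne out by a test: in an F test of whether the phosgene effect changed over the 8 times, 0 of 9 fibrillar chains passed (adjusted p from 0.178 to 0.924, with 3 at an unadjusted p under 0.05) and 0 of 6 type IV chains passed (adjusted p from 0.398 to 0.964, with 0 at an unadjusted p under 0.05). By that test 3.99% of all genes passed, and of the 36 collagen chains Col18a1 and Col6a3 did.

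**Figure D4:**
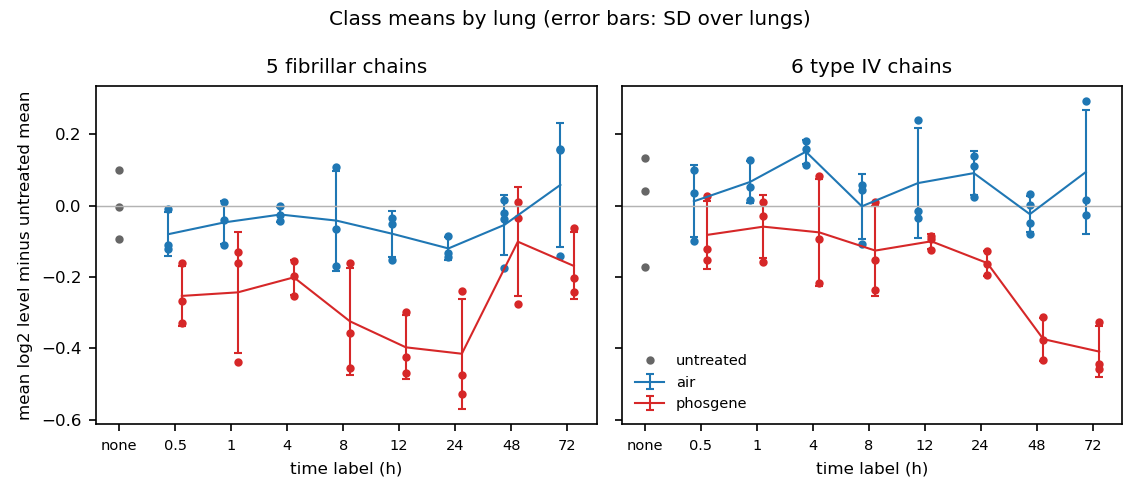
Mean log2 level (intensity plus 16) over 5 fibrillar chains (left) and 6 type IV chains (right), relative to the mean of the untreated lungs, by time label. Points are lungs, lines join group means and bars are the SD over lungs. The phosgene mean of the fibrillar chains is lowest at 24 h, at -0.41, and that of the type IV chains at 72 h, at -0.41.

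Col6a3, which codes for the largest chain of type VI collagen, carried the clearest fall of all 36. At 4 h the air lungs read 1184, 1373 and 1191 and the phosgene lungs 843, 751 and 847. At 8 h they read 1034, 981 and 1024 in air and 575, 608 and 740.2 after phosgene. The groups lay well apart at both times, with log2 changes of -0.61 ± 0.12 SE (limma adjusted p = 0.00132) and -0.66 ± 0.12 SE (adjusted p = 0.000339).

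At 24 h the separation was wider still. Col6a3 read 1154, 1009 and 955 in the air lungs and 500.4, 508 and 526 in the phosgene lungs, or 1039 ± 103 against 512 ± 13.0 (SD, n = 3 each). The change was -0.996 ± 0.123 SE (limma adjusted p = 1.39e-06), a fold of 0.501, and it lay between -1.06 and -0.92 whichever lung was left out. The calls of 4, 8 and 24 h held in each of those fits, and against untreated lungs, where the changes were -0.41 ± 0.12 SE, -0.76 ± 0.12 SE and -1.06 ± 0.12 SE (adjusted p = 0.0353, 2.81e-05 and 1.78e-07).

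At the 2 earliest times Col6a3 was not called. At 0.5 h it read 823, 1065 and 1019 in air and 943, 777 and 876 after phosgene, which overlap (-0.15 ± 0.12 SE, limma adjusted p = 1). At 1 h it read 1104, 1026 and 1086 and 777, 810 and 986, with no overlap but no call (-0.33 ± 0.12 SE, adjusted p = 0.357). From 1 h on, the phosgene lungs lay below the air lungs at all 7 times.

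At 12 h Col6a3 read 1023, 973 and 994 in air and 553, 848 and 695 after phosgene, at 48 h 1248, 953, 1359 and 1086 against 889, 831 and 919.9, and at 72 h 1108, 1271 and 1215 against 885, 872 and 887. The log2 changes were -0.53, -0.38 and -0.44 (limma adjusted p = 0.0129, 0.039 and 0.0327), shallower than at 24 h. The 12 h call was lost without air replicate 1, air replicate 3 or phosgene replicate 1 (adjusted p = 0.0518 to 0.248). The 48 h call was lost without any 1 lung but air replicates 2 and 4 (adjusted p = 0.079 to 0.172), and that of 72 h without any but air replicate 1 (adjusted p = 0.0659 to 0.121). Without the 5 air lungs numbered 155 to 159 the adjusted p was 0.302 at 48 h and 0.671 at 72 h. Over the 8 times together the change was -0.51 ± 0.04 SE (adjusted p = 2.7e-12), from -0.53 to -0.49 whichever lung was left out. The depth differed between times (F test, adjusted p = 0.0383), which was lost without those 5 air lungs, when 0 collagen chains passed that test.

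Col6a2 followed at 24 h. Mean intensities of Col6a2 in air, by time, were 1453, 1419, 1437, 1372, 1328, 1298, 1368 and 1423. Those after phosgene were 1330.2, 1313, 1279, 1231, 1109, 886, 1212 and 1200.2, with 1434 in untreated lungs and SDs of 18.6 to 211 over the 17 groups. At 24 h it read 1278, 1314 and 1302 in air and 852, 801 and 1005 after phosgene. The groups did not overlap, the log2 change was -0.55 ± 0.12 SE (limma adjusted p = 0.0041, fold 0.682), and the call held whichever lung was left out. The averaged change was -0.22 ± 0.04 SE (adjusted p = 5.26e-05) and was -0.28 ± 0.05 SE (adjusted p = 1.57e-05) from the second probe set, which at 24 h alone gave -0.42 ± 0.14 SE (adjusted p = 0.129).

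Col6a1 ran from 1116 to 1667 in air lungs (median 1271) and from 923 to 1532 in phosgene lungs (median 1235). The 2 groups overlapped at all 8 times. The averaged change was -0.08 ± 0.05 SE (limma adjusted p = 0.222), and the deepest single change, at 24 h, was -0.23 ± 0.13 SE (adjusted p = 0.527).

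**Figure D5:**
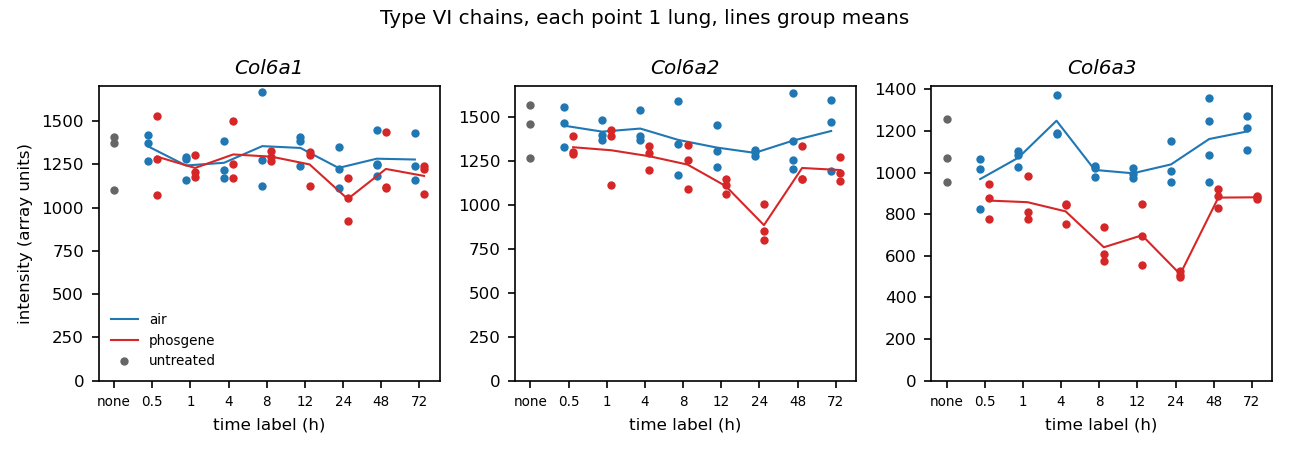
Intensity in array units (linear axes from 0) of the 3 type VI chains in each lung, by time label, with untreated lungs at the left. Points are lungs and lines join group means. The phosgene lungs of Col6a3 lie below the air lungs from 1 h on, at 24 h between 500.4 and 526 against 955 to 1154, whereas those of Col6a1 overlap the air lungs at every time.

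Chains that assemble together were then compared within each lung, as the log2 ratio of 1 chain to its partner, with lung labels permuted within times (100000 resamples, 2-sided, adjusted over the 6 ratios, which were chosen after the values were seen). The ratio of Col6a3 to Col6a1 was lower in phosgene lungs at 8 of 8 times, by an average of -0.43 (permutation adjusted p = 3e-05), and that of Col6a3 to Col6a2 at 8 of 8 times, by -0.29 (permutation adjusted p = 3e-05). Both unadjusted p values were 1e-05, the smallest that these resamples can give. Both kept their test without the 5 air lungs (-0.46 and -0.33) and whichever lung was left out, but they were picked once Col6a3 had been seen to fall most and are no independent support for that order. Col6a3 and Col6a1 have 1 probe set each, so no other probe set could be tried for their ratio. With the second probe set of Col6a2, the ratio of Col6a3 to Col6a2 was -0.23 (permutation adjusted p = 0.00256). Here and below, adjusted p values from next brightest probe sets are over only those ratios in which a chain has such a probe set.

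Within type IV, the ratio of Col4a2 to Col4a1 was lower at 8 of 8 times, by -0.14 (permutation adjusted p = 6e-05). With the second probe set of Col4a1 it was 0.04 (permutation adjusted p = 0.844), so the difference belongs to 1 probe set of that gene. The ratio of Col4a4 to Col4a3 differed by 0.01 (permutation adjusted p = 0.914) and lay between -0.03 and 0.03 whichever lung was left out. That of Col4a6 to Col4a5 differed by 0.03 (permutation adjusted p = 0.782), and by 0.24 (permutation adjusted p = 0.0219) from the next brightest probe sets. Within type I, the ratio of Col1a1 to Col1a2 was lower at 7 of 8 times, by -0.16 (permutation adjusted p = 0.0112), but was 0.02 from the next brightest probe sets (permutation adjusted p = 0.851).

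The 2 rises at single times were in other classes. Col18a1 codes for a basement membrane proteoglycan of the multiplexin class whose end fragment is endostatin. Over the 8 times, air means of Col18a1 were 220, 193, 266, 259.6, 238, 222, 184 and 236. The corresponding phosgene means were 194, 237, 202, 181, 196, 196, 273 and 228, with 247 in untreated lungs and SDs of 10.0 to 51.0 over the 17 groups. At 48 h it read 169, 195, 223 and 149.6 in air and 315, 239.8 and 265 after phosgene. The phosgene lungs all lay higher, by 0.55 ± 0.16 SE (limma adjusted p = 0.0274, fold 1.47), whereas at 8 h they all lay lower (277, 244 and 258 against 194, 171 and 178, -0.50 ± 0.17 SE, adjusted p = 0.0549). The effect differed between times (F test, adjusted p = 0.0251). The air mean of 48 h was the lowest of the 8 air means, and against untreated lungs the 48 h change was 0.14 (adjusted p = 0.745). The call was lost without air replicates 1 or 4 or phosgene replicates 1 or 3 (adjusted p = 0.0685 to 0.174), without the 5 air lungs numbered 155 to 159 (0.58, adjusted p = 0.0827), and in fits of the chips taken singly with day as a term (0.44, adjusted p = 0.121), with lot as a term (0.49, adjusted p = 0.0986), or on the same chips with neither term (0.485 in both, adjusted p = 0.0862 and 0.0763). The second probe set gave 0.33 ± 0.14 SE (adjusted p = 0.23).

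Col8a1 codes for a short-chain network collagen of vessel walls and lay below the median level of all genes. Air lungs averaged 66.0, 62.1, 81.6, 72.0, 93.5, 72.8, 67.3 and 82.7 at the 8 times in order. Phosgene lungs averaged 63.4, 90.7, 73.1, 67.5, 102, 140, 86.4 and 66.4, with 67.5 in untreated lungs and SDs of 2.1 to 43.1 over the 17 groups. At 24 h it read 71.5, 71.4 and 75.4 in air and 143, 95.4 and 181 after phosgene. The groups did not overlap, and the change was 0.78 ± 0.19 SE (limma adjusted p = 0.0195, fold 1.71), or 0.88 ± 0.19 SE against untreated lungs (adjusted p = 0.00368). It was lost in 5 of the 6 fits without 1 lung, all but that without phosgene replicate 2 (adjusted p = 0.0565 to 0.239), and the other probe set, close to background at a mean of 5.2 units, gave 0.18 ± 0.11 SE (adjusted p = 0.653).

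Col15a1, the other multiplexin, gave an averaged -0.25 ± 0.06 SE (limma adjusted p = 0.0013), with 72 to 152 units in air lungs and 49 to 122 in phosgene lungs. Among FACIT chains, Col12a1 gave -0.25 ± 0.08 SE (adjusted p = 0.0157), Col16a1 -0.22 ± 0.07 SE (adjusted p = 0.0138) and Col14a1 -0.13 ± 0.05 SE (adjusted p = 0.0309), the last of which did not pass with centred chips (-0.095, adjusted p = 0.18) or quantile scaling (-0.11, adjusted p = 0.0656). Without the 5 air lungs numbered 155 to 159 neither Col16a1 (-0.20, adjusted p = 0.0513) nor Col14a1 (-0.12, adjusted p = 0.08) passed. Col14a1 was also lost without air replicate 3 or phosgene replicate 2 of 0.5 h, air replicate 1 of 1 h, phosgene replicate 1 of 8 h or phosgene replicate 3 of 24 h (adjusted p = 0.0515 to 0.0572). The remaining FACIT chains Col9a1, Col9a2, Col9a3, Col19a1, Col20a1 and Col22a1, all dim, gave averaged changes of -0.15 to -0.01. The transmembrane chains Col13a1, Col17a1 and Col25a1 gave -0.27 to -0.10 with adjusted p from 0.0518 to 0.212, and Col7a1, Col10a1 and Col26a1 -0.07 to -0.02. None of these 12 passed at any time. Among the alternatives, Col17a1, a chain of epithelial hemidesmosomes, was called lower on average without the 5 air lungs (-0.31, limma adjusted p = 0.0239), and in the block fit with chip letter on average (-0.27, adjusted p = 0.0143) and at 48 h (-0.79, adjusted p = 0.0189). Col13a1 was called lower on average among genes at or above the median level (-0.125, adjusted p = 0.0474) and in the block fits (-0.125, adjusted p = 0.0404, with the chip letter as a term), and at 8 h with day as a term (-0.465, adjusted p = 0.0257) or lot (-0.39, adjusted p = 0.0433).

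No difference between air and untreated lungs was detectable among the collagen chains. Averaged over the 8 times, 0 of 36 differed between air and untreated lungs (0.242% of all genes did), with 1 at an unadjusted p under 0.05 (1564 of all 12393 genes). The median log2 change of the chains was 0.02 against 0.03 for all genes. Nor did any of the 36 change with time in air by the F test (0.96% of all genes did, and 5 of the 36 had an unadjusted p under 0.05, with adjusted p from 0.175 to 0.996). Unadjusted p values of the F tests were not counted over all genes.

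Genes that modify, process and bind collagen were counted in lists drawn from general knowledge, again for the averaged comparison, in which 16.5% of all genes were lower and 9.61% higher, the background to each count of a list. Of 15 measured genes of chain modification and folding, 8 fell and 2 rose, with a median log2 change of -0.12. Serpinh1, the collagen chaperone HSP47, fell by 0.85 ± 0.17 SE at 24 h (limma adjusted p = 0.00167), and the lysyl hydroxylases Plod1 and Plod2 were lower on average (-0.34 and -0.32). The 2 that rose were P4ha2, a prolyl hydroxylase subunit (0.25 ± 0.04 SE), and Hspa5, a general chaperone of the endoplasmic reticulum (0.21 ± 0.06 SE).

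Of 15 genes of propeptide removal, crosslinking and fibril assembly, 7 fell and 2 rose, with a median of -0.14. Lox, the lysyl oxidase that starts the crosslinking of fibrillar collagen and elastin, rose on average by 0.53 ± 0.07 SE (limma adjusted p = 8.84e-08) and by 0.80, 1.13, 1.04 and 1.10 (± 0.19 SE each) at 4, 8, 12 and 24 h, the times at which it passed. The procollagen proteinase enhancer Pcolce2 fell on average (-0.52 ± 0.05 SE, adjusted p = 4.46e-10) and by 1.12 ± 0.14 SE at 48 h. Of 6 receptor and uptake genes, Mrc2, an endocytic collagen receptor, fell (-0.48 ± 0.05 SE, adjusted p = 3.04e-09) and Ddr1, a collagen-binding kinase of epithelium, rose (0.31 ± 0.10 SE, adjusted p = 0.0141).

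Of 13 noncollagen basement membrane genes, 9 fell and 0 rose, with a median of -0.23, near that of the type IV chains (-0.25). Lama3, a chain of epithelial laminin, was lowest at 24 h (-0.98 ± 0.12 SE, limma adjusted p = 1.43e-06). Nid1, the nidogen that links laminin to type IV collagen, and the laminin chains Lama4 and Lamc1 were lower at 72 h (-0.70 ± 0.13 SE, -0.67 ± 0.14 SE and -0.61 ± 0.18 SE). Of 18 genes of the TGF-beta pathway, which drives collagen transcription in fibroblasts, 4 rose and 4 fell, the latter count near that background, among them Tgfb1 itself (-0.42 ± 0.07 SE, adjusted p = 1.52e-05), the latent TGF-beta binding protein Ltbp4 (-0.64 ± 0.11 SE) and Ccn2, a common readout of the pathway (0.26 ± 0.08 SE).

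Markers of several cell types moved too, against 16.5% of all genes lower and 9.61% higher in the averaged comparison. Of 10 fibroblast markers 6 fell and 0 rose in the averaged comparison, with a median log2 change of -0.25, Tcf21 falling most (-0.46 ± 0.07 SE, limma adjusted p = 1.29e-06). Their summed level at 24 h was 13329 to 13983 units in air lungs and 8866 to 11696 in phosgene lungs, and at 72 h 12463 to 14536 against 9622 to 11025. All 9 endothelial markers fell, with a median of -0.37, and summed at 72 h to 7331 to 8664 in air lungs and 4785 to 5781 in phosgene lungs. Dcn and Lum stand both in the fibroblast list and in that of fibril assembly. Of 8 smooth muscle and pericyte markers 3 rose and 1 fell. Of 5 alveolar type 1 markers 1 rose and 2 fell (median -0.08), and of 5 alveolar type 2 markers 0 rose and 0 fell (median 0.06). Of 4 mesothelium markers 1 rose and 0 fell, and of 5 macrophage markers 1 rose and 1 fell. Of 6 neutrophil markers 5 rose and 0 fell, summing at 8 h to 486 to 638 in air lungs and 1090 to 4455 in phosgene lungs, and all 4 markers of dividing cells were higher at 72 h, when 2.15% of all genes were. Of 3 fat and 5 thymus markers none was called in the averaged comparison. In the air lungs of 1 h the fat markers summed to 164 to 2057 units (median 333) and the thymus markers to 88 to 758 (median 105). The highest sums in any other group were 937 and 175. What this means for the 1 h comparison was not tested. The part of these shifts of markers in the collagen results was not tested.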

How the data were processed

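The deposited values are linear signal intensities, scaled by the authors on each chip so that the mean without the outer 2% at each end was the same, 150.03 to 150.04 as recomputed. Algorithm and software: not given in the sources used here. Deposited chip settings, of unit other, gave 11 hybridization days and 3 chip lots, known for 97 and 95 of 104 chips. Log2 of the intensity plus 16 was averaged over the 2 chips of a lung. Of 22690 probe sets, 20380 carry 1 symbol, 691 several, 1555 none and 64 are controls.

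All 17 groups of 52 lungs were fitted together with limma 3.58.1 (R 4.3.3), with variances moderated along intensity (40.4 degrees of freedom) and p values, 2-sided, adjusted by Benjamini and Hochberg over 12393 genes. The averaged effect weights the 8 times equally. The call threshold was an adjusted p under 0.05, and genes called at any single time are described by group, the others by ranges. Members, classes and lists were chosen with earlier results of these data known. On simulated data, 90 of 100 genes with a log2 change of 1 at 4 h and 100 of 100 with 2 were recovered among 12393 genes, with 14 false calls. Changes smaller than 1, the size of nearly all those of the collagen chains, were not simulated, so their rate of recovery is not known. Alternatives changed 1 choice at a time (offset 64, filter, scaling, probe set, control group, lungs left out), except the block fits, which took each chip singly, with a random effect of lung (duplicateCorrelation) and a term for chip letter, day or lot, the last 2 on the chips with a known day or lot. Those for the ratios between chains, and the fits on these chips with neither term, were added after the values were seen.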

Additional observations from a re-analysis of the deposited data

Results flagged for a closer look

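Among the 4 air lungs of 48 h, 1 lung stood apart from the other 3 in 3 dim chains, as the share of the range taken by the gap to its neighbour: 0.831 for Col9a1, 0.859 for Col9a2 and 0.851 for Col10a1. Their intensities were 55.0, 77, 74.3 and 72.4 for Col9a1, 1.9, 1.9, 3.8 and 1.6 for Col9a2, and 4.9, 5.4, 8.9 and 5.4 for Col10a1, so lung 1 was the low one in Col9a1 and lung 3 the high one in the other 2. Chance gives such a gap in about 1 in 20 groups, and all 36 chains were screened, so some such gaps would arise by chance alone.

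The phosgene effect differed between the 8 times for 2 chains in limma's F test, Col18a1 (adjusted p = 0.0251) and Col6a3 (adjusted p = 0.0383). Col18a1 went from -0.50 at 8 h to 0.55 at 48 h, and Col6a3 from -0.15 at 0.5 h to -0.996 at 24 h. Without the 5 air lungs numbered 155 to 159, 0 of the 36 passed this test.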

How the results depend on the processing

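The averaged fall of 16 collagen chains held in number under most settings: 14 to 19 were called with the offset of 64, other scalings, the filter on dim genes, the blocks and without the 5 air lungs numbered 155 to 159, and 15 to 18 whichever lung was left out. The filter left 18 chains to test, so its count is out of 18 and not of 36. Over all genes the main fit called 3232, 63.1% of them lower. The filter called 2515 (63.6% lower), centred chips 2771 (48.1%) and the replicate block 3479 (62.1%). The exceptions in direction were Col8a1, called higher with hybridization day as a term (0.17, limma adjusted p = 0.0358), and in number the next brightest probe sets, which exist for 19 of the 36 and called 5 (Col3a1, Col4a1, Col4a5, Col6a2 and Col14a1), against 8 of the same 19 from the brightest sets.

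Counts at single times were less stable. Leaving out 1 lung gave 1 to 3 calls at 4 h, 1 to 2 at 8 h, 0 to 3 at 12 h, 2 to 5 at 24 h, 0 to 3 at 48 h, 2 to 6 at 72 h and 0 to 3 for the change of the effect with time, and 0 to 0 at 0.5 h and 1 h, for the change in air and for air against untreated lungs. With the replicate block (the 2 chips of a lung as a random block, correlation 0.283) the counts were 2 at 8 h, 5 at 12 h, 7 at 48 h, 6 at 72 h, 4 for change with time and 1 for change in air. With day in place of chip letter they were 4 at 4 h, 6 at 8 h, 7 at 12 h, 7 at 24 h, 6 at 48 h and 0 at 72 h, and Col4a3 was the 1 chain that differed between air and untreated lungs. With chip lot they were 5 at 8 h, 6 at 12 h, 9 at 24 h, 7 at 48 h and 0 at 72 h. On the chips with a known day but no day term they were 5 at 12 h, 7 at 24 h, 7 at 48 h, 5 at 72 h and 1 for change in air, and on those with a known lot but no lot term 5 at 12 h, 7 at 24 h, 6 at 48 h and 0 at 72 h, so the loss at 72 h came in fits in which 1 air lung bore on that time. Chips of a lung are not separate lungs, so the added calls of these blocks are no added support. Over all genes the replicate block called 1512 at 8 h, 555 at 12 h, 1098 at 48 h and 904 at 72 h. The main fit called 1084, 227, 674 and 501. With day as a term 529 genes were called at 12 h and 1023 at 48 h. Higher counts in these fits are thus not particular to collagen chains. Calls of the F tests were not counted over all genes by setting. Lung numbers pair no lungs across groups. Over all genes the filter called 1051 at 8 h, 262 at 12 h and 471 at 72 h. Quantile scaling called 307 at 12 h, 696 at 48 h and 517 at 72 h. The counts of collagen chains were 2 at 8 h, 2 at 12 h and 5 at 72 h with the filter. With quantile scaling they were 2 at 12 h, 5 at 48 h and 5 at 72 h. Without the 5 air lungs they were 2 at 12 h, 1 at 48 h (Col5a2 higher, with none of Col4a5, Col6a3 and Col18a1), 0 at 72 h and 0 for change with time. Centred chips gave 1 for change with time. The next brightest probe sets gave 0 at 4, 8 and 12 h, 1 each at 24, 48 and 72 h, and 1 for change with time.

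Ratios changed sign for Col1a1 to Col1a2 (0.018) and Col4a2 to Col4a1 (0.035) with the next brightest probe sets. That of Col4a4 to Col4a3, which was never called, did so without the 5 air lungs (-0.016) and in 12 of 49 fits without 1 lung. All 49 of those fits together ran from -0.028 to 0.034. The causes were not tested. Dim probe sets, 18 of the 36, limit what can be seen of cartilage and FACIT chains.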
